A study of Mus musculus with 13 samples.

Results

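Transcripts of 10 glycolytic enzymes were followed in microglia sorted from stressed and control mice. The genes were chosen by name, as Hk2, Gpi1, Pfkl, Aldoa, Tpi1, Gapdh, Pgk1, Eno1, Pkm and Ldha, and all 10 were found among the 14518 gene entries of the table. They cover the pathway from the first phosphorylation of glucose to lactate, apart from the phosphoglycerate mutase step. Adult C57BL/6 mice, 2 months old, were exposed to an aggressor in 6 cycles of social defeat (the repeated social defeat group, RSD, n = 7) or served as controls (CON, n = 6). Microglia were taken 24 days after the last cycle, enriched on Percoll, and sorted as cells positive for CD11b with intermediate CD45. Total RNA was sequenced after depletion of ribosomal RNA and other abundant transcripts, and the sources used here do not say which transcripts those are. Whether every library came from its own animal is not stated in the labels. The p-values therefore measure only how far these samples spread, which may be technical. The comparison asks which transcripts differed after the stress had ended.

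Glycolysis splits glucose into pyruvate in the cytosol and yields ATP and NADH without oxygen. Lactate dehydrogenase then turns pyruvate into lactate and restores NAD for the glyceraldehyde phosphate dehydrogenase step. Macrophages and microglia are known to raise glycolysis when inflammatory signals activate them, with hypoxia-inducible factor 1 as a main inducer of the enzyme genes, and resting microglia can use glucose, fatty acids and glutamine. The steps at hexokinase, phosphofructokinase and pyruvate kinase are the irreversible, regulated ones.

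Promoter sequence is shown first because hypoxia-inducible factors bind a short core in the promoters of this pathway. The core was searched as ACGTG and as GCGTG, on both strands, in the 250 bases before RefSeq starts (GRCm38.p6). The 10 members have 16 such windows, since 4 members have several starts, and windows of one gene may share bases. ACGTG stood in 6 of the 16, against 16.6% of 32851 promoters, and GCGTG in 6, against 28.2%. One or the other stood in 12 of 16, against 38.6% of all promoters. With 1 window a gene, the one nearest the start of the GENCODE transcript used here for length and GC content, 7 of 10 members held one or the other. These 10 windows had a median GC content of 58.8%, against 52.4% over all promoters. A match is a description of the letters and not a binding site. For 6 members the RefSeq start and the start of that transcript coincide, and the 5 of them with a core are printed 5′ to 3′ on the strand of the gene, with the core or its reverse complement in capitals. A start used here can lie inside the gene's outer bounds, as it does for Pfkl, Aldoa and Gapdh. The windows are those of Hk2 (chr6:82774455-82774704, minus strand), Pfkl (chr10:78009808-78010057, minus strand), Aldoa (chr7:126799255-126799504, minus strand), Gapdh (chr6:125165774-125166023, minus strand) and Pgk1 (chrX:106186850-106187099, plus strand).
Hk2: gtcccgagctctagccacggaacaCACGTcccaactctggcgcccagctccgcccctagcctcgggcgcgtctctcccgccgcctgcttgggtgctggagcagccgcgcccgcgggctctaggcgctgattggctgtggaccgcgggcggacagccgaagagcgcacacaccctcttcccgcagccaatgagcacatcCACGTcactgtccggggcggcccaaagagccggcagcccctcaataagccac
Pfkl: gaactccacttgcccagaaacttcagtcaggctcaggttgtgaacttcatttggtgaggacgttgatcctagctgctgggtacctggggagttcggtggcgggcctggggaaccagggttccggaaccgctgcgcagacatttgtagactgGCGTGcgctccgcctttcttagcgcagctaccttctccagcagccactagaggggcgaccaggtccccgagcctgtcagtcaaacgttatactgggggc
Aldoa: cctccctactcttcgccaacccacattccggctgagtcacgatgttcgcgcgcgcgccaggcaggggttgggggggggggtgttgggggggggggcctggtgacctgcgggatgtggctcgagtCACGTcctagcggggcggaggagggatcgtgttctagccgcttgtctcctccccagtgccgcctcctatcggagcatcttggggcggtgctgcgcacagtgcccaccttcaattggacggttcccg
Gapdh: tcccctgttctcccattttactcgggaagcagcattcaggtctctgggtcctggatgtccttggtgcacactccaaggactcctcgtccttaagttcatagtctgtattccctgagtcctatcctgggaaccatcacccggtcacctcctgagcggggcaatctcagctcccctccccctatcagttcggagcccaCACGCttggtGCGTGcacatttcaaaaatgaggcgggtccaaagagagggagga
Pgk1: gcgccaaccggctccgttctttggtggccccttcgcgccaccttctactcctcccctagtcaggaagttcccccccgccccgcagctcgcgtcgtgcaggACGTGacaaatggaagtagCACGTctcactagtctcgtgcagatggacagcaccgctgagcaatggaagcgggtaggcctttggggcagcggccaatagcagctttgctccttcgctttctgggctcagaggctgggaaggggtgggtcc
Hk2 and Pgk1 each carry the ACGTG core at 2 places, Gapdh carries GCGTG at 2 places, Aldoa carries ACGTG at 1 and Pfkl GCGTG at 1.

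The 13 libraries held 9.76 to 12.3 M recovered reads each. The 10 genes together took 0.0627% to 0.0898% of the normalized reads of a library, and the lowest read number of any member in any library was 29. Microglial marker genes summed to 275739 to 293486 normalized reads in RSD and to 281641 to 295382 in CON, except for the library CON 18 at 180295. Of the 6 border macrophage markers used, the sum was 14823 in CON 18 and 175 to 423 in the other 12 libraries. Apoe, a lipid carrier of macrophages, stood at 122964 normalized reads in CON 18, and Sall1, a microglial identity factor, at 4226, against 13228 to 16684 elsewhere. RSD 8 held the largest share of the nuclear RNA Malat1, 4.55% of its reads. In RSD 8 the deviation of genes from the other libraries followed transcript GC content more than in any other library (Spearman -0.73 over 12406 genes). RSD 2 was next at -0.52, and the other 11 libraries lay between -0.03 and 0.48. The members' differences below are therefore given with and without CON 18 and RSD 8. Sample numbers fall in the ranges 1 to 8 (3 RSD, 3 CON) and 10 to 19 (4 RSD, 3 CON), and the labels do not say what the numbers stand for. In sorted cells pooled for sequencing, fewer cells of a type and less RNA per cell cannot be told apart.

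Of the 10 glycolytic enzyme genes, 0 passed an adjusted p of 0.05 between RSD and CON in limma, and 9 of 10 had a log2 difference below 0. Of the 12496 genes in the test 0 (0%) passed, with a smallest adjusted p of 0.821, and 48.6% had a log2 difference below 0. The median log2 difference of the members was -0.08, against 0.006 over all genes tested. At an unadjusted p under 0.05, 1 member (Gapdh) was lower and 0 were higher, against backgrounds of 1.98% lower and 2.02% higher (500 genes, or 4.00%, in all). edgeR called 0 genes after adjustment and 4.81% before it, and limma-voom called 0 and 9.02%. DESeq2 called 2 genes (0.0162%) after adjustment, with 0 members among them, and 4.68% before it. RSD and CON values overlapped for all 10 members, and over all genes tested 8 (0.0640%) had groups that did not overlap. All 10 members passed the filter on low values.

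**Figure D1:**
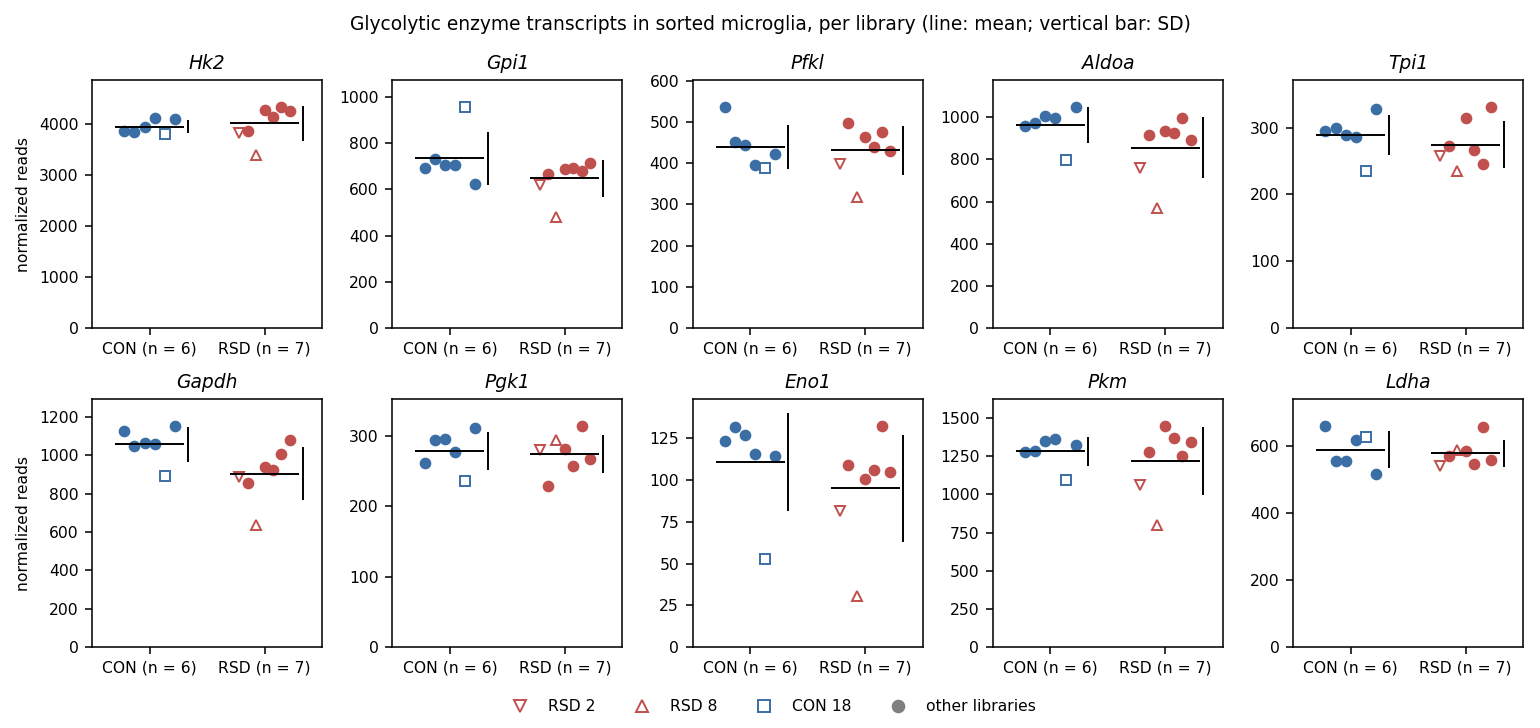
Normalized reads of the 10 genes in each library, with CON on the left and RSD on the right of each panel, the mean as a line, the SD as a vertical bar and open symbols for RSD 2, RSD 8 and CON 18. RSD 8 is the lowest point for 8 of the 10 genes, and the groups overlap in every panel.

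Hexokinase 2, encoded by Hk2 (chr6:82725025-82774454, minus strand), phosphorylates glucose and can sit on the outer mitochondrial membrane. It ran from 3388 to 4341 normalized reads in RSD, with a median of 4133, and from 3809 to 4130.2 in CON, with a median of 3908. The low RSD value was RSD 8, and 3 of 7 RSD libraries lay below the median of CON. The means were 4015 ± 343 (SD, n = 7) and 3951 ± 133 (SD, n = 6), a log2 difference of 0.02 ± 0.07 (SE; 95% interval -0.12 to 0.16; limma adjusted p = 0.945), and 0.05 ± 0.05 without CON 18 and RSD 8. Hk2 thus had the narrowest interval of the 10 and the smallest relative spread over libraries, a coefficient of variation of 6.51%.

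Glucose-6-phosphate isomerase, encoded by Gpi1 (chr7:34201330-34230336, minus strand), makes fructose 6-phosphate. It ran from 479.9 to 715 normalized reads in RSD (median 679.8) and from 622 to 958 in CON (median 706). The lowest value was RSD 8 and the highest was CON 18, at 139% of the median of the other libraries. The means were 649 ± 80.2 (SD, n = 7) and 736 ± 115 (SD, n = 6), a log2 difference of -0.18 ± 0.11 (SE; limma adjusted p = 0.821). Without CON 18 and RSD 8 it was -0.03 ± 0.06.

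Liver-type phosphofructokinase, encoded by Pfkl (chr10:77986947-78010083, minus strand), catalyses the committed step. It ran from 318 to 497 normalized reads in RSD (median 439) and from 389 to 537 in CON (median 433). Only 1 RSD library, RSD 8, lay below every control. The means were 431 ± 59.4 (SD, n = 7) and 439.9 ± 53.5 (SD, n = 6), a log2 difference of -0.03 ± 0.11 (SE; limma adjusted p = 0.938). It was 0.003 ± 0.08 without CON 18 and RSD 8.

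Aldolase A, encoded by Aldoa (chr7:126795234-126800751, minus strand), cleaves fructose 1,6-bisphosphate into triose phosphates. It ran from 568.2 to 997 normalized reads in RSD (median 916) and from 799 to 1050.0 in CON (median 984). CON 18 was the lowest control, 2 RSD libraries lay below it, and 6 of 7 RSD libraries lay below the median of CON. The means were 857 ± 146 (SD, n = 7) and 964 ± 86.4 (SD, n = 6), a log2 difference of -0.19 ± 0.12 (SE; 95% interval -0.43 to 0.06; limma adjusted p = 0.821). Without CON 18 and RSD 8 the difference was -0.14 ± 0.06 (limma unadjusted p = 0.0319, adjusted p = 0.903).

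Triosephosphate isomerase, encoded by Tpi1 (chr6:124810586-124814296, minus strand), interconverts the triose phosphates. It ran from 235 to 331 normalized reads in RSD (median 267) and from 236 to 328 in CON (median 292). Both ranges nearly coincided, and RSD 8 and CON 18 were the lowest of their groups. The means were 274 ± 35.5 (SD, n = 7) and 289 ± 30.1 (SD, n = 6), a log2 difference of -0.08 ± 0.10 (SE; limma adjusted p = 0.850). It was -0.10 ± 0.09 without CON 18 and RSD 8.

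Gapdh (chr6:125161715-125166467, minus strand) encodes glyceraldehyde-3-phosphate dehydrogenase, which reduces NAD and is a common reference gene in expression assays. It stood at 638 in RSD 8, 854 in RSD 7, 887 in RSD 2, 921 in RSD 11, 938 in RSD 10, 1006 in RSD 12 and 1077 in RSD 13. In CON it ran from 894 to 1152, with a median of 1061. Thus 6 of 7 RSD libraries lay below the median of CON and 3 lay below the lowest control, which was CON 18. The means were 903 ± 139 (SD, n = 7) and 1057 ± 90.2 (SD, n = 6), so RSD was at 85.4% of CON. The log2 difference was -0.24 ± 0.10 (SE; 95% interval -0.46 to -0.02; limma unadjusted p = 0.0353, adjusted p = 0.821), and this p ranked 300 among the 12496. It was -0.21 ± 0.06 without CON 18 and RSD 8 (limma unadjusted p = 0.00285, adjusted p = 0.903) and -0.14 ± 0.07 after correction of each library for GC content (limma unadjusted p = 0.0486, adjusted p = 0.902). Leaving out CON 1, CON 4, CON 5, CON 17, CON 19, RSD 2 or RSD 7, each in turn, took the unadjusted limma p above 0.05, to between 0.0517 and 0.0760. Gapdh also has 77 annotated copies with at least 95% identity over at least 300 bases, 74 of them pseudogenes. Only 2 of these, Gm12070 and Gm5069, have entries here, at 22.0 normalized reads together. The sources used here do not say how reads shared between copies were counted.

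Phosphoglycerate kinase 1, encoded by Pgk1 (chrX:106187100-106203699, plus strand), makes the first ATP of the payoff phase. It ran from 229 to 314 normalized reads in RSD (median 280.1) and from 236 to 310.4 in CON (median 285). RSD 8, low for most members, was not low here and stood at 105% of the median of the other libraries. The means were 274 ± 27.0 (SD, n = 7) and 279 ± 27.0 (SD, n = 6), a log2 difference of -0.02 ± 0.09 (SE; limma adjusted p = 0.956). It was -0.09 ± 0.09 without CON 18 and RSD 8.

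Enolase 1 makes phosphoenolpyruvate, and its gene Eno1 (chr4:150236721-150248879, plus strand) had the lowest and most variable values of the 10. It ran from 30.9 to 132 normalized reads in RSD (median 104) and from 53.0 to 132 in CON (median 119). The low ends were RSD 8, at 27.7% of the median of the other libraries, and CON 18, at 47.6%. The means were 94.9 ± 31.9 (SD, n = 7) and 111 ± 29.1 (SD, n = 6), a log2 difference of -0.27 ± 0.30 (SE; 95% interval -0.91 to 0.37; limma adjusted p = 0.833), the widest interval of the 10, and -0.22 ± 0.12 without CON 18 and RSD 8.

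Most reads of this enzyme were listed under Eno1b, a protein-coding copy whose 1302 coding bases differ from those of Eno1 at 8 positions, an identity of 99.4%, with a longest identical run of 725 bases. The following stretch of the spliced Eno1 coding sequence (bases 697 to 816 counted from the start codon, GENCODE M21, GRCm38) is the part that tells them apart best. Capitals mark the bases at which Eno1b differs, 4 of the 8 within 120 bases.
Eno1: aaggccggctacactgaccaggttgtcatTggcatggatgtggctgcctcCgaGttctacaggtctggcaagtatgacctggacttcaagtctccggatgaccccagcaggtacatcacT
Within the coding sequence, a read that covers none of the differing positions matches both genes equally. The alignment of Eno1b with the Eno1 transcript covered 1736 of its 2027 bases. Eno1b stood at 555 normalized reads on average and Eno1 at 102, and Eno1 made up 7.00% (RSD 8) to 18.6% (RSD 12) of their sum. The sum was 633 ± 93.4 in RSD (SD, n = 7) and 685 ± 104 in CON (SD, n = 6), with the lowest values at 441 in RSD 8 and 473 in CON 18. Its log2 difference was -0.11 ± 0.12 (SE; limma adjusted p = 0.832), and -0.13 ± 0.06 without CON 18 and RSD 8 (limma unadjusted p = 0.0371, adjusted p = 0.903). Summing was chosen after the values were seen. Eno1 read alone is therefore uncertain.

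**Figure D2:**
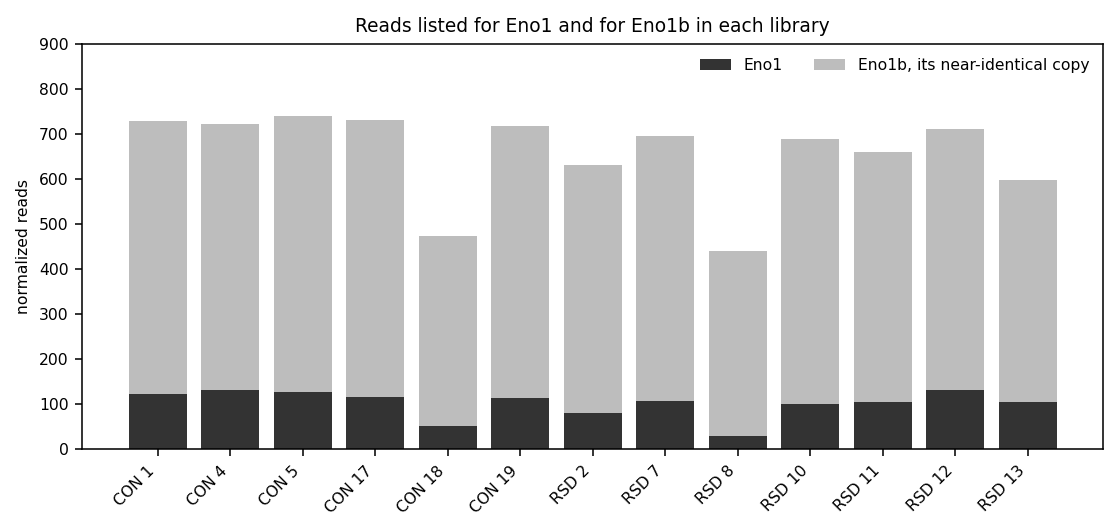
Normalized reads listed for Eno1 (dark) and for Eno1b (light) in each library, stacked. Eno1 is the smaller part in all 13 libraries, 7.00% to 18.6% of the sum, and the sums of RSD 8 and CON 18 are the lowest.

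Pyruvate kinase M, encoded by Pkm (chr9:59656368-59679375, plus strand), makes pyruvate and ATP. It ran from 799 to 1446 normalized reads in RSD (median 1277) and from 1096 to 1359 in CON (median 1302). RSD 8 and RSD 2 were the lowest libraries, and 4 of 7 RSD libraries lay below the median of CON. The means were 1220.3 ± 222 (SD, n = 7) and 1280.4 ± 96.2 (SD, n = 6), a log2 difference of -0.09 ± 0.12 (SE; limma adjusted p = 0.850). It was -0.04 ± 0.06 without CON 18 and RSD 8. The table holds 1 entry for Pkm and does not separate its M1 and M2 splice forms.

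Lactate dehydrogenase A, encoded by Ldha (chr7:46841475-46855627, plus strand), makes lactate. It ran from 540.4 to 658 normalized reads in RSD (median 569.8) and from 516 to 659.6 in CON (median 587). Here neither RSD 8 nor CON 18 was low, at 104% and 111% of the median of the other libraries. The means were 578 ± 39.5 (SD, n = 7) and 589 ± 54.4 (SD, n = 6), a log2 difference of -0.02 ± 0.08 (SE; 95% interval -0.18 to 0.13; limma adjusted p = 0.936). It was -0.01 ± 0.07 without CON 18 and RSD 8.

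Other members also share sequence with annotated copies, by the same identity limit. Gpi1, Tpi1 and Pkm have 1 each, Ldha has 3 and Pgk1 has 4, and none of these has an entry in the table. Hk2, Pfkl and Aldoa have 0. Exons of Gapdh share 68 bases with Iffo1, those of Tpi1 share 34 with Spsb2, those of Aldoa share 25 with Fam57b and those of Gpi1 share 741 with Gm26762, each on the opposite strand. Pkm shares 767 with Gm49759 on its own strand. The sources used here do not say whether counting was by strand.

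RSD 8 had the lowest value of all 13 libraries for 8 of 10 members, where it was lowest for 24.9% of all genes tested and highest for 27.5%. Its values were 59.9% of the median of the other libraries for Aldoa, 61.4% for Pkm, 62.1% for Gapdh and 84.3% for Hk2. The exceptions, Pgk1 and Ldha, have the lowest transcript GC contents of the 10, at 49.7% and 51.0%, and Pkm has the highest, at 57.7%. Across the 10 members the deviation in a library had a Spearman correlation with transcript GC content of -0.93 in RSD 8 and -0.88 in RSD 2. In the other 11 libraries it was between -0.31 and 0.50. These are descriptions over 10 genes that share a library. After correction for GC content in every library, 7 of 10 members had a log2 difference below 0, with a median of -0.03, and 1 lower at an unadjusted p under 0.05 (Gapdh), against backgrounds of 48.5% and 1.95%. What part GC content has in the RSD values was not tested beyond this correction.

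**Figure D3:**
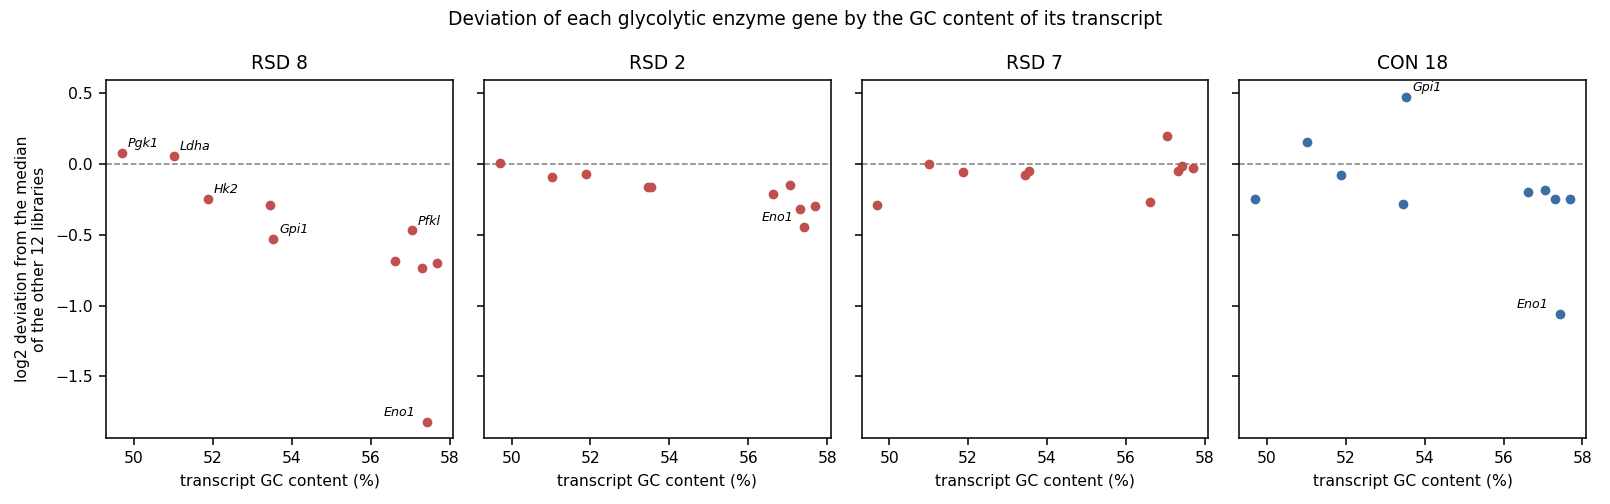
Log2 deviation of each of the 10 genes from the median of the other 12 libraries (vertical axis) against the GC content of its transcript in percent (horizontal axis), for RSD 8, RSD 2, RSD 7 and CON 18. In RSD 8 the points descend from Pgk1 and Ldha, near 0, to Eno1 at -1.82, and CON 18 shows a high Gpi1 and a low Eno1.

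Within sample numbers 1 to 8 all 10 members had a log2 difference below 0, with a median of -0.27, and 4 were lower at an unadjusted p under 0.05 in limma. Of all genes 51.0% were below 0 there, and 10.2% were lower at an unadjusted p under 0.05. The 4 members were Gapdh at -0.46 ± 0.13, Aldoa at -0.41 ± 0.16, Eno1 at -0.96 ± 0.37 and Pkm at -0.34 ± 0.15 (SE). With Eno1b summed in, Eno1 was at -0.33 ± 0.16 (limma unadjusted p = 0.0609, adjusted p = 0.239). The libraries of lowest GC trend, RSD 8 (Spearman -0.73) and RSD 2 (-0.52), are in this range, on the RSD side, with RSD 7 at 0.10. The controls CON 1, CON 4 and CON 5 were at 0.29, 0.48 and 0.34. The 7 neutrophil markers summed to 1188, 778 and 929 normalized reads in RSD 2, RSD 7 and RSD 8 and to 182, 738 and 552 in CON 1, CON 4 and CON 5, so each RSD library was above each control. Its part in the members' values was not tested. Within numbers 10 to 19, 3 of 10 were below 0, with a median of 0.03, and 0 were under an unadjusted p of 0.05, against backgrounds of 48.8% and 5.41%. Gapdh was at -0.06 ± 0.10 there, Aldoa at -0.01 ± 0.10 and Pkm at 0.11 ± 0.09. The library CON 18 lies in this range, and the neutrophil markers summed to 11.6 to 142 normalized reads there. 0 genes passed an adjusted p of 0.05 in either range. With GC correction within numbers 1 to 8, chosen after seeing the data, the median of the members was -0.08, with Gapdh at -0.17 ± 0.08 and Aldoa at -0.10 ± 0.07, and 8 of 10 members were below 0, against 50.4% of genes. Eno1, at -0.64 ± 0.27, was the 1 member lower at an unadjusted p under 0.05, against 6.36% of genes. Its reads were not summed with those of Eno1b for this correction.

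The difference between the ranges was tested as an interaction term in limma. It was above 0 for 10 of 10 members and for 52.2% of all genes. In limma 4 members were under an unadjusted p of 0.05, and in edgeR 2 (Gapdh and Pkm), where 21.7% of all genes were in either tool. The 4 were Pfkl at 0.42 ± 0.19, Gapdh at 0.39 ± 0.17, Eno1 at 1.27 ± 0.53 and Pkm at 0.45 ± 0.19 (SE; limma adjusted p = 0.217, 0.212, 0.201 and 0.201). With Eno1b summed in, the term for Eno1 was 0.41 ± 0.24 (limma unadjusted p = 0.101, adjusted p = 0.308). 0 of 12496 genes passed an adjusted p of 0.05. Without CON 18 and RSD 8 the term was 0.14 ± 0.11 for Gapdh and 0.17 ± 0.11 for Pkm, and 0 members were under an unadjusted p of 0.05, against 9.04% of genes above 0 and 11.0% below 0. The term was still below 0 for 0 of 10 members there, with a median of 0.14, against 48.7% of genes. In that fit 463 genes (3.69%), with 0 members among them, passed an adjusted p of 0.05. Without both libraries the comparison of RSD with CON had 8 of 10 members below 0, a median of -0.06, and 2 under an unadjusted p of 0.05 (Gapdh and Aldoa, both lower). Of all genes 49.7% were below 0 there, and 2.43% were lower at an unadjusted p under 0.05.

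**Figure D4:**
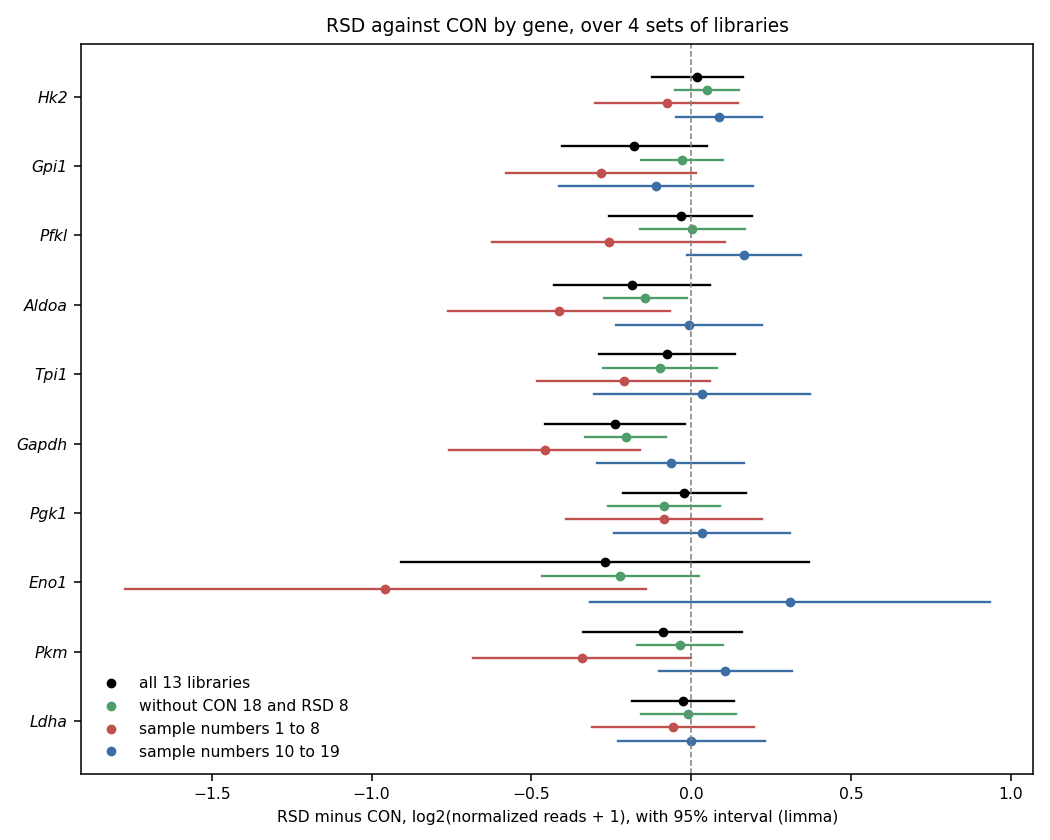
Log2 difference of RSD minus CON for each gene, with its 95% interval from limma, over all 13 libraries, without CON 18 and RSD 8, and within each range of sample numbers. Intervals of Gapdh exclude 0 in the first 3 sets and include it within numbers 10 to 19. Those of Hk2, Gpi1, Pfkl, Tpi1, Pgk1 and Ldha include 0 in all 4.

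Levels were compared between genes as normalized reads per kb of transcript. Hk2 led with 723 ± 47.0 (SD, n = 13), followed by Gapdh at 686 ± 98.1, Aldoa at 599.6 ± 85.9 and Pkm at 513 ± 70.6. Ldha was at 330.1 ± 25.6, Gpi1 at 239 ± 35.9, Tpi1 at 175 ± 20.3 and Pgk1 at 151 ± 14.2. Pfkl was at 117 ± 14.6 and Eno1 at 50.4 ± 15.04. The ranges over libraries overlapped between every pair of neighbours in this order except Pfkl and Eno1. Hk2 was above Gapdh in 9 of 13 libraries, and Aldoa was above Pkm, Ldha above Gpi1 and Gpi1 above Tpi1 in 13 of 13. The place of Gapdh and Eno1 in the order carries the doubt about their copies, and Gpi1, Tpi1, Pgk1, Pkm and Ldha have annotated copies too. Eno1b, at a mean of 555 normalized reads against 102 for Eno1, is not counted in this order. Which abundant transcripts were depleted before sequencing is not stated.

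Several steps have isoenzymes, and the share of each was taken per kb of transcript. Hk2 made up 60.2% ± 3.33 of hexokinase reads per kb (SD, n = 13), Hk3 33.8% ± 3.56 and Hk1, the form typical of neurons, 6.00% ± 0.758. Pfkl made up 74.1% ± 3.88, the muscle form Pfkm 19.4% ± 2.50 and the platelet form Pfkp 6.49% ± 2.19. Ldhb, whose subunit favours the conversion of lactate to pyruvate, made up 77.7% ± 5.51 and Ldha 22.3% ± 5.51. Eno1 made up 37.7% ± 6.33 of enolase reads per kb, the muscle form Eno3 59.3% ± 5.91 and the neuronal form Eno2 2.95% ± 1.47. With Eno1b counted in, Eno1 and Eno1b together made up 80.2% ± 1.63. Aldoc and Pklr were not analysed here.

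Of the 4 shares tested, 0 passed the threshold between groups. Hk2 was at 61.3% ± 4.04 in the RSD libraries and 58.8% ± 1.68 in the controls (exact permutation p = 0.164, adjusted 0.519, two-sided). Pfkl was at 75.2% ± 3.15 and 72.8% ± 4.52 (exact permutation p = 0.296, adjusted 0.519). Eno1 was at 36.2% ± 7.84 and 39.5% ± 3.90 (exact permutation p = 0.389, adjusted 0.519). This share leaves out Eno1b. With Eno1b counted in, it was 79.8% ± 2.06 in RSD and 80.6% ± 0.964 in CON, which was not tested. Ldha was at 21.7% ± 2.46 and 23.0% ± 8.04 (exact permutation p = 0.875, adjusted 0.875). For Ldha, CON 18 stood at 39.2% and the other 12 libraries at 18.3% to 26.0%, and without CON 18 and RSD 8 the difference was 1.24 percentage points with RSD higher. CON 18 held 720.1 normalized reads of Ldhb, against a mean of 1557 over all libraries.

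**Figure D5:**
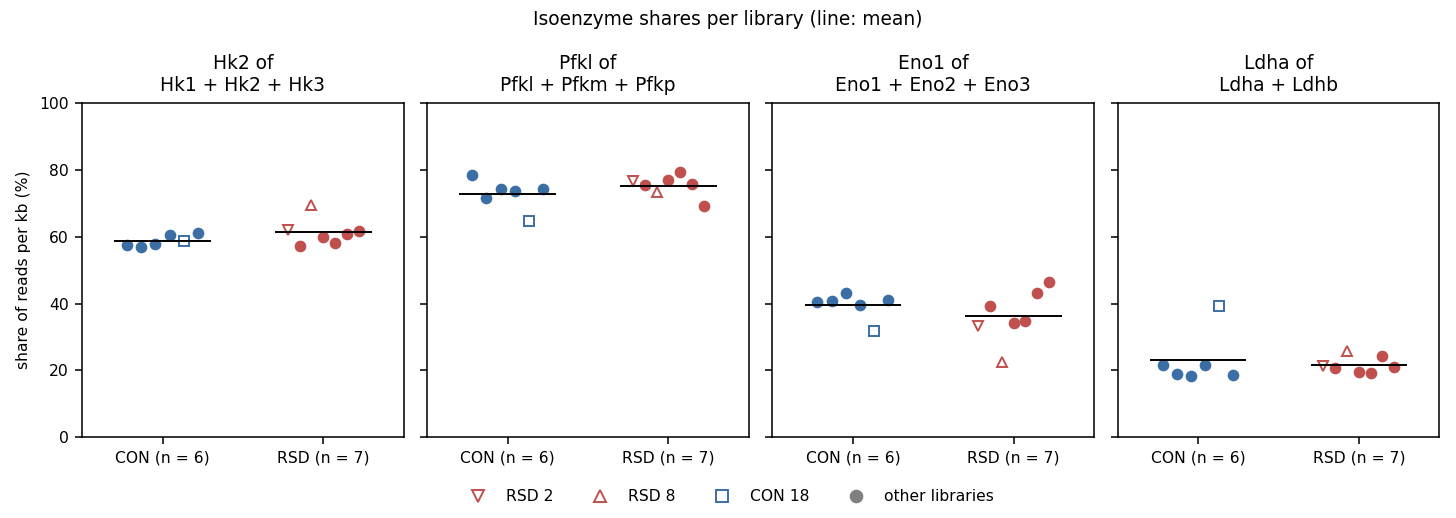
Share of Hk2, Pfkl, Eno1 and Ldha among the isoenzymes named above each panel, in percent of normalized reads per kb, with 1 point per library and the group mean as a line. CON 18 stands at 39.2% for Ldha, above the other libraries, and RSD 8 at 69.6% for Hk2. Eno1b is not counted in the Eno1 share.

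Around the enzymes, 118 genes of 10 further lists of glucose metabolism entered the same limma fit, and 0 had an adjusted p under 0.05. At an unadjusted p under 0.05, 3 were higher (Higd1a, Ankrd37 and Sucla2) and 1 was lower (Pfkfb4), and 53 were below 0, with a median log2 difference of 0.02. Backgrounds of 2.02% higher and 1.98% lower apply here as well. Over all genes tested 48.6% were below 0, and 49.7% without CON 18 and RSD 8. The counts below 0 of each list that follows are to be read beside these shares. Without CON 18 and RSD 8, 308 of 12535 genes were higher at an unadjusted limma p under 0.05 and 304 (2.43%) were lower. In that setting 0 genes passed an adjusted p of 0.05.

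Among other isoenzymes, 9 of 13 tested were below 0, with a median of -0.13 and 0 under an unadjusted p of 0.05. With CON 18 and RSD 8 left out, 11 of 14 were below 0, with a median of -0.04. Hk3, a hexokinase of myeloid cells, averaged 1268 ± 287 normalized reads over RSD (SD, n = 7) and 1387 ± 62.4 over CON (SD, n = 6), a log2 difference of -0.17 ± 0.15, with RSD 8 at 657. Ldhb stood at 0.04 ± 0.19, and at -0.12 ± 0.06 without CON 18 and RSD 8 (limma unadjusted p = 0.0449), and the mitochondrial D-lactate dehydrogenase gene Ldhd at -0.50 ± 0.24. Hk1 was at 0.03 ± 0.11, Pfkm at -0.22 ± 0.15, Pfkp at -0.15 ± 0.22, Eno3 at -0.05 ± 0.17 and the sperm-type gene Gapdhs at -0.21 ± 0.16. Hk3 was at -0.02 ± 0.06 without CON 18 and RSD 8, Hk1 at -0.02 ± 0.09 and Pfkm at -0.11 ± 0.14. Pfkp was there at -0.002 ± 0.19, Eno3 at -0.05 ± 0.12, Gapdhs at -0.12 ± 0.15 and Ldhd at -0.38 ± 0.25. Eno2, with a mean of 10.5 normalized reads, was below the filter.

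Of the transporters, 6 of 10 were below 0, with a median of -0.11 and 0 under an unadjusted p of 0.05. Slc2a5, which encodes the fructose transporter GLUT5 of microglia, ran from 2520 to 3781 normalized reads in RSD (median 3525) and from 1005 to 4060.0 in CON (median 3730). The lowest control was CON 18. Its log2 difference was 0.16 ± 0.28, and -0.09 ± 0.06 without CON 18 and RSD 8. Slc2a1, the GLUT1 glucose transporter gene, was at -0.13 ± 0.09 and Slc2a8 at -0.30 ± 0.18. They were at -0.08 ± 0.08 and -0.13 ± 0.12 without CON 18 and RSD 8. For the lactate carriers, Slc16a3 (MCT4, known for lactate export) was at -0.14 ± 0.21 and Slc16a1 (MCT1) at 0.38 ± 0.23. Without CON 18 and RSD 8 they were at -0.12 ± 0.10 and 0.10 ± 0.11.

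Regulators of flux had 4 of 10 below 0 and a median of 0.04. Pfkfb3, whose product makes the phosphofructokinase activator fructose 2,6-bisphosphate, averaged 2392 ± 144 normalized reads over RSD and 2304 ± 140.2 over CON, a log2 difference of 0.05 ± 0.06. Pfkfb4, of the same family, was at 557 ± 82.5 and 682 ± 134, a log2 difference of -0.29 ± 0.13 (limma unadjusted p = 0.0357, adjusted p = 0.821). Its highest value was CON 18 and its lowest RSD 8, and without them it was at -0.10 ± 0.06 (limma unadjusted p = 0.120). Pfkfb2 was at 0.15 ± 0.08, and Txnip, an inhibitor of glucose uptake, at 0.17 ± 0.09. Without both libraries Pfkfb2 was at 0.09 ± 0.07 and Txnip at 0.12 ± 0.06 (limma unadjusted p = 0.0464 for Txnip).

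Hif1a, the oxygen-regulated subunit of hypoxia-inducible factor 1, averaged 2290.2 ± 428 normalized reads over RSD and 1958 ± 231 over CON, a log2 difference of 0.22 ± 0.11 (limma adjusted p = 0.821). RSD 8 held the highest value, 3163, and CON 18 the lowest, 1537, and without them the difference was 0.07 ± 0.06. Its transcript has a GC content of 41.3%, below those of all 10 enzymes. Of the 12 transcription factors tested 5 were below 0, with a median of 0.03. Among them were Hif1an, an inhibitor of this factor, at -0.16 ± 0.08, and Mlxip, a glucose-sensing factor, at -0.09 ± 0.07. Hif1an was at -0.12 ± 0.07 and Mlxip at -0.03 ± 0.06 without CON 18 and RSD 8.

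Other hypoxia-induced genes had 2 of 10 below 0 and a median of 0.14, or 3 of 10 and 0.09 without CON 18 and RSD 8. Higd1a, a mitochondrial protein gene, averaged 79.8 ± 7.93 normalized reads over RSD and 61.7 ± 12.8 over CON, a log2 difference of 0.39 ± 0.14 (limma unadjusted p = 0.0162, adjusted p = 0.821). It ran from 67.0 to 87.9 in RSD and from 44.5 to 78.8 in CON, and without CON 18 and RSD 8 it was at 0.41 ± 0.15 (limma unadjusted p = 0.0110). Ankrd37 was at 0.55 ± 0.24 at a mean of 34.4 normalized reads, with RSD 8 highest. The mitophagy gene Bnip3 was at 0.22 ± 0.11, again with RSD 8 highest. Ankrd37 was at 0.41 ± 0.23 and Bnip3 at 0.11 ± 0.10 without CON 18 and RSD 8. The enzymes had 9 of 10 below 0 and these genes 2 of 10, against 48.6% of all genes tested. Within numbers 10 to 19 the enzymes had 3 of 10 and these genes 1 of 10, against 48.8%. After GC correction it was 7 of 10 and 2 of 10, against 48.5%. The difference between the lists was not tested.

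Genes that take pyruvate into mitochondria had 2 of 13 below 0 and a median of 0.10, or 4 of 13 and 0.03 without CON 18 and RSD 8. Dld, the dehydrogenase subunit shared by several 2-oxoacid complexes, was at 0.16 ± 0.10, Pdha1 at 0.15 ± 0.11 and the kinase Pdk2, which inhibits pyruvate dehydrogenase, at -0.18 ± 0.15. The tricarboxylic acid cycle had 7 of 16 below 0 and a median of 0.004, or 11 of 16 and -0.03 without CON 18 and RSD 8, with Sucla2, a subunit of succinyl-CoA synthetase, at 0.23 ± 0.10 (limma unadjusted p = 0.0466, adjusted p = 0.821). Sucla2 was highest in RSD 8 and at 0.14 ± 0.08 without CON 18 and RSD 8. Mdh2 was at -0.15 ± 0.10 and Ogdh at -0.09 ± 0.08. Dld was at 0.08 ± 0.07 without CON 18 and RSD 8, Pdha1 at 0.02 ± 0.08 and Pdk2 at -0.14 ± 0.12. Mdh2 was there at -0.08 ± 0.07 and Ogdh at -0.03 ± 0.06.

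The pentose phosphate pathway, which branches off at glucose 6-phosphate and yields NADPH, had 8 of 10 below 0 and a median of -0.05, and again 8 of 10 without CON 18 and RSD 8, with a median of -0.03. G6pdx, its entry enzyme, was at -0.10 ± 0.06, Pgls at -0.33 ± 0.17 and Prps2 at 0.18 ± 0.10. They were at -0.08 ± 0.07, -0.19 ± 0.13 and 0.06 ± 0.07 without CON 18 and RSD 8. Glycogen and hexose storage had 5 of 14 below 0 and a median of 0.04, with the phosphorylase genes Pygl at 0.26 ± 0.17 and Pygm at -0.32 ± 0.22 and the branching enzyme gene Gbe1 at 0.14 ± 0.11. Glycerol, serine and shuttle genes had 5 of 10 below 0 and a median of -0.01, with Psat1 at 0.27 ± 0.18, Mdh1 at -0.10 ± 0.08 and Shmt2 at -0.19 ± 0.19. Pygl was at 0.09 ± 0.11 and Gbe1 at 0.06 ± 0.09 without CON 18 and RSD 8. Psat1 was there at 0.04 ± 0.11 and Mdh1 at -0.14 ± 0.08, and Shmt2 turned its sign, at 0.04 ± 0.11. These 3 lists held 0 genes under an unadjusted p of 0.05 over all 13 libraries. Without CON 18 and RSD 8 they held 1, Pygm at -0.44 ± 0.21 (limma unadjusted p = 0.0409), where 2.43% of all genes were lower at that threshold.

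Values of the members went together across libraries only in part. Of 45 pairs 36 had a positive Spearman correlation over the 13 libraries, with a median of 0.29, and 33 had one over the 11 libraries without CON 18 and RSD 8, with a median of 0.14. Aldoa and Eno1 were the closest pair, at 0.84 and 0.74, and Tpi1 and Gapdh stood at 0.76 and 0.65. The genes most like the mean of the 10, by Spearman correlation over the 13 libraries among 8757 genes of at least 100 normalized reads, were Rtn4rl1 at 0.96 and Alox5ap, the activating protein of 5-lipoxygenase, at 0.96. Tpst2 stood at 0.95 and Fbxl14, Orai3 and Scamp2 at 0.94 each. Without CON 18 and RSD 8 they were Rtn4rl1 at 0.95, Alox5ap at 0.93, Arhgap31 and Tpst2 at 0.92, and G6pc3 and P2ry6 at 0.91. All points share their library's depth and GC trend, and these values are descriptions.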

How the data were processed

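The deposited table holds normalized reads per gene for 13 libraries, a signal that the authors made by dividing each count by a size factor of the sample. Alignment used STAR and the mm10 build, and normalization used DESeq2, per the submitters' processing notes. The sources used here do not name versions, counter, annotation or strand setting. Within a tolerance of 0.01 reads, 100% of values were whole multiples of 1 step per sample, so the reads were recovered. Chi-square per degree of freedom was at least 4.36 for every pair of libraries, so no library looked deposited more than once, which does not show separate animals.

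Groups were compared with limma (3.58.1, R 4.3.3; trend, robust, two-sided) on log2(value + 1), which understates changes of low genes. Genes kept by filterByExpr (minimum count 10, total 15) numbered 12496, with Benjamini-Hochberg adjustment over all of them and a threshold of 0.05. edgeR (4.0.16), DESeq2 (1.42.0) and limma-voom served as alternatives on the recovered reads. The limma step was tested on simulated data. Isoenzyme shares were compared over all 1716 assignments of samples. GC correction subtracted a loess trend (span 0.5) per library. Symbols were matched to GENCODE M21 (13790) or through RefSeq synonyms (556), and 172 had no match. Copies were sought with blastn (2.17.0).

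The members and lists were chosen with earlier results of these data known, so their values are no independent support. Named genes are the members, their isoenzymes, up to 3 genes of smallest p per list, Hif1a, Slc2a1, Slc2a5, Slc16a3, Pfkfb3, the 6 genes most like the members' mean with and without CON 18 and RSD 8, and Apoe, Sall1 and Malat1. Alternatives were other pseudocounts, filters, size factors and tools, the number range as a covariate, each range alone, GC correction, summed enolase copies and leaving out libraries.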

Additional observations from a re-analysis of the deposited data

Results flagged for a closer look

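In groups of 6 or 7, 9 of 28 groups tested had an end value set apart from the rest by more than Dixon's 95% critical value. For independent groups chance gives about 1 in 20. These groups share their libraries and are not independent, so the count is a description. Most of the end values were in CON 18, the library with macrophage transcripts, or RSD 8, the library with the strongest GC trend. The part of either in these values was not tested. Gpi1 stood at 479.9 normalized reads in RSD 8, against 619 to 715 in the other RSD libraries, and at 958 in CON 18, against 622 to 732 in the other controls. CON 18 was low for Aldoa (799, against 961 to 1050.0), Eno1 (53.0, against 114 to 132) and Pkm (1096, against 1276 to 1359). Ldha stood at 658 in RSD 12, against 540.4 to 587 in the other RSD libraries. Of the shares, Hk2 stood at 69.6% in RSD 8 (57.3% to 62.0% in the other RSD libraries). Eno1 stood at 31.9% in CON 18 (39.7% to 43.2% in the other controls), and Ldha at 39.2% in CON 18 (18.3% to 21.7%). The Eno1 share here leaves out Eno1b.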

How the results depend on the processing

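No member passed an adjusted p of 0.05 under any of 33 alternatives. DESeq2 called 2 genes, and GC correction within numbers 1 to 8, chosen after seeing the data, called 1, with 0 members among them. Members below 0 numbered 3 within numbers 10 to 19, also with Eno1 and Eno1b summed, and 7 to 10 when 1 library was left out. Their median was -0.27 within numbers 1 to 8, also with the copies summed, and -0.12 to -0.03 when 1 library was left out. Members under an unadjusted p of 0.05 numbered 4 within numbers 1 to 8, 0 within 10 to 19 and 2 without CON 18 and RSD 8. With the copies summed (an alternative added after seeing the data) they numbered 3, 0 and 3, and with 1 library left out 0 to 2. The interaction with the number range passed for 463 genes without CON 18 and RSD 8. Signs turned under some alternatives for members other than Gapdh, Aldoa and Gpi1. Hk2 was at -0.077 within numbers 1 to 8. Within numbers 10 to 19 Pfkl was at 0.17, Tpi1 at 0.034, Pgk1 at 0.033, Eno1 at 0.31 (0.078 summed), Pkm at 0.11 and Ldha at 0.00041. Without CON 18 and RSD 8 Pfkl was at 0.0034. With GC correction Pfkl was at 0.072 and Pkm at 0.023, and without those libraries, too, at 0.049 and 0.013. Pfkl was at 0.047 with GC correction in numbers 1 to 8. With 1 library left out the ranges were -0.00018 to 0.059 for Hk2, -0.070 to 0.037 for Pfkl, -0.068 to 0.021 for Pgk1, -0.13 to 0.0081 for Pkm, -0.062 to 0.0088 for Ldha, and -2.23 to 1.94 percentage points for the Ldha share. The Hk2 share differed by -0.0061 points and the Eno1 share by 2.00 within numbers 10 to 19, and the Ldha share by 1.24 without CON 18 and RSD 8 and 3.12 within numbers 1 to 8. Gapdh, Aldoa and Gpi1 kept their sign under all alternatives run, though some values were near 0. Gpi1 was at -0.0025 ± 0.052 with GC correction without CON 18 and RSD 8. Aldoa was at -0.0073 ± 0.10 within numbers 10 to 19. The cause of these moves was not tested. The labels name no pairs of RSD and CON samples, so no paired analysis was run. Eno1, at 29 to 143 reads, is the member that depth limits most.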
